A study of Mus musculus with 4 samples.

Results

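The genes of the ISG15 system were followed in macrophages grown from mouse bone marrow: Isg15 itself, the genes of the enzymes that attach the protein to others (Uba7, Ube2l6 and Herc6) and the gene of the enzyme that takes it off (Usp18). These 5 genes were taken by symbol from the 18256 gene symbols of the count files, and all 5 were found and passed the filter on low counts, as did 12966 genes in all. RNA was sequenced from wild-type (WT) cells in 4 libraries, 2 per group. Marrow cells were cultured for 7 days with 20 ng/ml MCSF, the growth factor that turns marrow precursors into macrophages. M0 cells were left unstimulated, and M1 cells received 20 ng/ml IFN-γ (interferon-gamma) with 100 ng/ml LPS, a component of bacterial walls, for 24 h. Whether the M1 medium still held MCSF, and the age, sex and number of the mice, are not stated in the sources used here. Since no label ties the 2 libraries of a group to different animals or dishes, the p-values describe only the spread between these libraries, which may be technical.

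ISG15 is a small ubiquitin-like protein that cells make in response to interferon. It is joined to other proteins through an enzyme cascade like that of ubiquitin: an activating enzyme (E1) charges it, a conjugating enzyme (E2) carries it and a ligase (E3) places it on the target. A dedicated isopeptidase, USP18, cuts it off again, and USP18 also binds the type I interferon receptor and dampens its signal. Free ISG15 can leave the cell and act on lymphocytes. In mice, HERC6 is the main ISG15 ligase, the role that HERC5 has in human cells.

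The libraries held 15921466 to 18987705 counts over genes, so that 3 counts stood for 0.144 to 0.185 CPM (counts per 1000000, relative to the library total scaled by the TMM normalization factor). Of the 8 macrophage markers, all had counts in every library, and their summed level was 20700 and 23000 CPM in M0 and 29700 and 29200 CPM in M1. Markers of T and NK cells summed to at most 1.73 CPM in any library, with Cd3g, Ncr1, Gzma and Prf1 at 0 (9 of 10 genes measured), and those of B and plasma cells to at most 5.37 CPM, with Ms4a1 at 0 (6 of 7). Markers of mast cells and basophils (3 of 6 measured) and of erythroid cells (3 of 5) stayed at or under 1.91 and 0.464 CPM. Classical dendritic cell markers (6 of 6) summed to between 2.58 and 4.43 CPM. The 9 neutrophil markers summed to 240 and 253 CPM in M0 and to 149 and 110 CPM in M1, and the 6 stromal markers to 699 and 677 against 448 and 502 CPM. Most of the stromal sum was Col1a1 and Col1a2. Of 5 stromal markers tested, 3 were lower in M1 (60.0%, against 24.0% of all tested genes). The other 2, Col3a1 and Dcn, were higher (40.0%, against 24.2%). The 6 markers of plasmacytoid dendritic cells, which are strong producers of type I interferon, summed to 209 and 205 CPM in M0 and 1330 and 1190 CPM in M1. In M1 most of that sum was Bst2, itself induced by interferon in many cells (84.2 and 89.8 CPM in M0, 1230 and 1100 CPM in M1). Of the others, Tcf4 stood at 118 and 110 against 92.3 and 86.7 CPM, Siglech at 6.18 and 5.27 against 0 and 0.308 CPM, and Ccr9 at 0.192 and 0.0579 against 0.985 and 1.05 CPM. Pacsin1 had counts in M0 replicate 2 alone (0.29 CPM), and Klk1 was at 0. The part of these other markers in the results was not tested.

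Interferon acts on such genes through short promoter sequences, and the promoters are shown for the members that held a match to such a motif. Promoter windows of 4 of the 5 genes (Isg15, Uba7, Ube2l6 and Herc6) were matched by symbol in RefSeq's table for GRCm38.p6. Each window runs from 250 bases before to 50 after the start of transcription, and the part before the start is printed. Capitals mark matches to GAAA-NN-GAAA, a repeat found in interferon-stimulated response elements (ISRE), or to AAA-NN-GAAAC. The latter form lacks the first G, has an added C at its end and was chosen after the promoters had been seen. Positions are relative to RefSeq's start. Both motifs were searched on both strands, and matches may overlap. N stands for any base, and hyphens only separate the parts of a motif.
Isg15 (chr4:156200819-156201068, minus strand): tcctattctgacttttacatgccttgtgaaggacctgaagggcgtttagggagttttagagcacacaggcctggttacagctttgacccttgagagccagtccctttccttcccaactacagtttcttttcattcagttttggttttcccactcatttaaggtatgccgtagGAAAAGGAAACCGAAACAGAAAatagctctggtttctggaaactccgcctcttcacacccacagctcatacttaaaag
Uba7 (chr9:107975317-107975566, plus strand): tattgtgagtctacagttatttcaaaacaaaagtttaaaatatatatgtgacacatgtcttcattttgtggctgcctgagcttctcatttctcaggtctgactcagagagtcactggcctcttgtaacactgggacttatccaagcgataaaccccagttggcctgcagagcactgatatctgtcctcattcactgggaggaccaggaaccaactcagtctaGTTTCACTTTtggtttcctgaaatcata

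The Isg15 promoter held 3 overlapping matches to GAAA-NN-GAAA, which began 78, 72 and 66 bases before the start. The Uba7 promoter had no match to GAAA-NN-GAAA and a single match to AAA-NN-GAAAC, on the minus strand, 28 to 19 bases before RefSeq's start. The GENCODE vM21 annotation used below starts Uba7 earlier, at 107975505, whereas the printed window runs to 107975566. By that annotation the match lies inside the gene. Neither sequence occurred in the windows of Ube2l6 and Herc6. GAAA-NN-GAAA was present in 3.44% of all 32851 promoter windows and AAA-NN-GAAAC in 2.24%. Counted by gene, the shares were 4.06% and 2.56% of the 9974 tested genes with a window. They were 16.8% and 12.8% of the 501 called higher in M1 (adjusted p under 0.05) by at least 4-fold, which include these 4 members. The longer form with CT directly after GAAA-NN-GAAA (0.271% of windows), the STAT-binding GAS sequence TTCNNNGAA (8.3%) and the NF-kB sequence GGG-NN-TTTCC (1.63%) occurred in none of the 4 windows. A match describes these letters only, and no match says only that they are not in this window.

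The comparison asked how M1 macrophages differ from M0 macrophages. All 5 genes of the ISG15 system rose, by 7.2-fold for the E1 gene up to 163-fold for the modifier. Isg15 and Usp18, the modifier and its remover, had the largest rises, and the 3 conjugation genes rose less. By edgeR's quasi-likelihood test at an adjusted p under 0.05, 48.2% of all 12966 tested genes were called different between the groups, 24.2% of all tested genes as higher in M1 and 24.0% as lower. The share called higher by at least 2-fold was 9.93%, and by at least 4-fold 5.13%, a mark that each of the 5 genes passed. The count of genes called higher was 3140 with all libraries, 1691 when M0 replicate 1 was omitted and 1832 when M0 replicate 2 was, and that of genes called lower was 3108, 1463 and 1549. With library totals in place of TMM, 29.8% of the calls were higher rather than 50.3%. The 5 members kept their call in each of these fits. Both M1 libraries lay above both M0 libraries for each of them, as they did for 37.0% of all tested genes. In bulk samples, more cells that express a gene and more RNA per cell cannot be told apart.

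**Figure D1:**
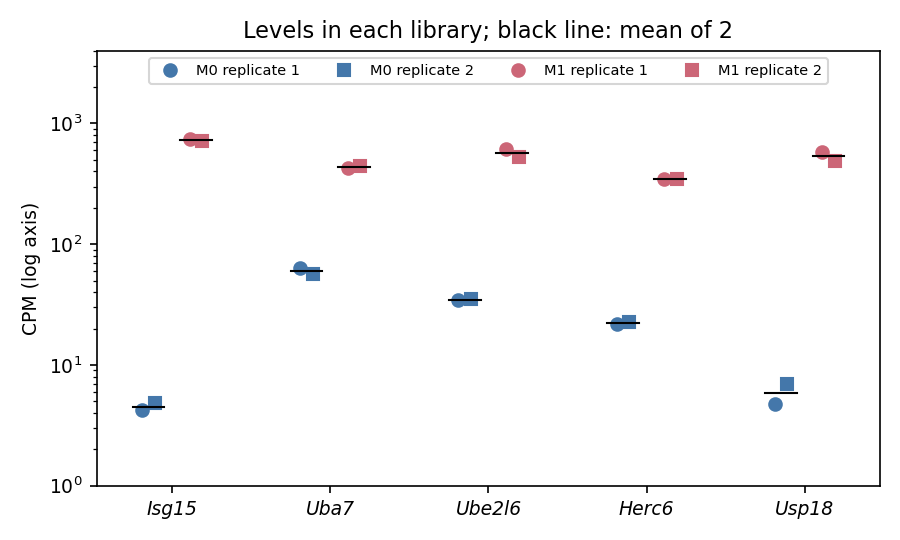
CPM (log axis) of the 5 genes in each library, with M0 in blue, M1 in red, circles for replicate 1, squares for replicate 2 and a black line at the mean of 2. All M1 points lie between 345 and 747 CPM and all M0 points between 4.22 and 63.9 CPM, with no overlap between groups for any gene. CPM is not scaled for gene length.

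Isg15 encodes the modifier (chromosome 4, 156199424 to 156200818 on the minus strand, 2 exon blocks, in GENCODE vM21 on GRCm38). It had 88 and 83 counts in M0 and 12135 and 11672 in M1, or 4.22 and 4.81 CPM against 747 and 718 CPM. The groups lay far apart, and the libraries of each group close together. Isg15 rose from 4.51 ± 0.417 to 732 ± 20.4 CPM (SD, n = 2 libraries per group here and throughout), with a log2 fold change of 7.35 (95% interval 7.05 to 7.64, adjusted p = 3.74e-11). It stood at position 73 of the 12966 tested genes when these were ordered by fold change. The counts of Isg15 are uncertain, because the processed pseudogene AC151275.1, not analysed here, matches 482 of the transcript's 756 bases (63.8%) at 95.2% identity.

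Uba7 encodes the E1 that activates ISG15 (chromosome 9, 107975505 to 107984060, plus strand). It stood at 63.9 and 56.8 CPM in M0 and at 425 and 444 CPM in M1, and the groups did not overlap. It rose from 60.3 ± 5.0 to 435 ± 13.4 CPM. Its log2 fold change of 2.85 (95% interval 2.61 to 3.08, adjusted p = 2.71e-09) was the smallest of the 5, and its interval overlapped none of the other 4. At position 419 in the order of fold changes, it still lay above all but 3.22% of tested genes. The same-strand gene Gm20661 shares 233 of its exonic bases.

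Ube2l6 encodes the E2 for ISG15 (chromosome 2, 84798828 to 84810335, plus strand). It stood at 34.3 and 35.2 CPM in M0 and at 612 and 531 CPM in M1. The M1 libraries differed from each other more than the M0 libraries did, and the groups were far apart. Ube2l6 rose from 34.7 ± 0.596 to 572 ± 57.1 CPM, a log2 fold change of 4.04 (95% interval 3.78 to 4.30, adjusted p = 4.28e-10). Its counts are uncertain too, since 506 of the 1560 bases of its longest transcript (32.4%) match a transcript of Gm17167 at 95.1% identity.

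Herc6 encodes the ISG15 ligase (chromosome 6, 57581000 to 57664632, plus strand). It stood at 22.0 and 22.6 CPM in M0 and at 347 and 345 CPM in M1, with little spread in either group. Herc6 rose from 22.3 ± 0.418 to 346 ± 1.45 CPM, a log2 fold change of 3.95 (95% interval 3.72 to 4.19, adjusted p = 3.02e-10). The interval largely overlapped that of Ube2l6. The difference between the 2 genes was not tested. Gm45193 on the same strand shares 1269 exonic bases with Herc6 (13.66%).

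Usp18 encodes the isopeptidase (chromosome 6, 121245906 to 121270917, plus strand), with no entry in the promoter table. It had 99 and 120 counts in M0 and 9357 and 7959 in M1, or 4.75 and 6.95 CPM against 576 and 490 CPM. The libraries of a group lay further apart than for Herc6, while the groups did not overlap: M0 replicate 2 was above M0 replicate 1, and M1 replicate 1 above M1 replicate 2. Its log2 fold change was 6.52 (95% interval 6.13 to 6.91, adjusted p = 3.04e-10), below the interval of Isg15 and above those of the conjugation genes. The lincRNA gene Gm44148 on the opposite strand overlaps 124 exonic bases of Usp18 (4.44%). Without a stated strand setting, reads from that overlap cannot be assigned to either gene.

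**Figure D2:**
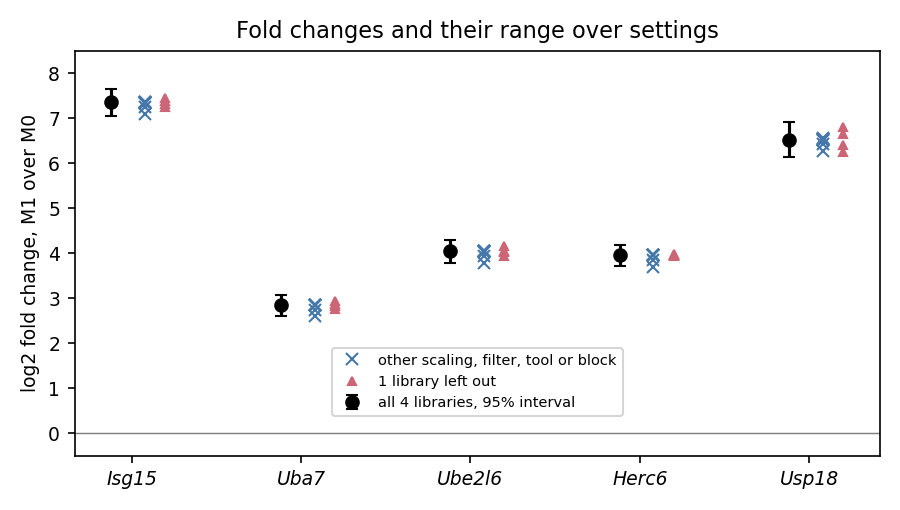
Log2 fold change of M1 over M0 for the 5 genes, with the 95% interval of the edgeR fit on all 4 libraries (black), the values under another scaling, filter, tool or block (blue crosses) and those with 1 library left out (red triangles). Usp18 moved most, between 6.26 and 6.81, and every value of every gene stays above 2.

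Levels of different genes were compared as CPM per kilobase of exonic sequence. In M0 the order was Ube2l6 (17.4 ± 0.299), Uba7 (9.01 ± 0.748), Isg15 (5.97 ± 0.552), Herc6 (2.4 ± 0.045) and Usp18 (2.1 ± 0.559), where the last 2 overlapped between libraries. In M1 the order was Isg15 (969 ± 27.0), Ube2l6 (286 ± 28.6), Usp18 (191 ± 21.9), Uba7 (65.0 ± 2.0) and Herc6 (37.2 ± 0.156), with no overlap between neighbours. So measured levels of the E2 and E1 genes were above that of the modifier in unstimulated cells, and the modifier was above every enzyme gene in stimulated cells. The order also rests on the counts of Isg15 and Ube2l6, which are uncertain because of the sequence matches given above. The order of the means was the same with the longest annotated transcript as the length. The lengths are those of GENCODE vM21, which may not be the authors' annotation, and they set the absolute ratios between genes but not the change of a ratio between groups.

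The balance between members was read as ratios of these per-length levels within each library. The ratio of Isg15 to Uba7 was 0.585 and 0.75 in M0 and 15.5 and 14.3 in M1, which is 22.3 times higher by the means. Modifier and remover kept much closer: Isg15 to Usp18 stood at 3.28 and 2.55 in M0 and at 4.79 and 5.41 in M1, 1.75 times higher by the means and without overlap. Within the cascade, Ube2l6 to Uba7 went from 1.8 and 2.08 to 4.82 and 4.01, and Herc6 to Uba7 from 0.248 and 0.287 to 0.587 and 0.559. With 2 libraries against 2, an exact two-sided permutation test cannot give a p below 0.333, and the ratios were not tested. Each also rests on the annotated lengths: with the longest transcript, Isg15 to Usp18 averaged 1.85 in M0 and 3.24 in M1. The ratios with Isg15 or Ube2l6 rest on the uncertain counts of these genes as well.

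Each member was next set beside the other genes of its enzyme family, most of which serve ubiquitin or another ubiquitin-like protein. Among 9 other E1 genes tested, 3 were higher (33.3%, against 24.2% of all tested genes), 1 was lower (11.1%, against 24.0%) and 5 missed the threshold (median log2 fold change 0.20, against -0.02 for all tested genes). Uba1, the main ubiquitin E1, had the largest rise among them, from 336 and 348 CPM to 724 and 779 CPM (log2 fold change 1.14, adjusted p = 2.12e-06). Atg7, the E1 of autophagy, fell from 53.4 and 63.7 to 38.2 and 36.4 CPM (-0.65), but did not pass when M0 replicate 2 was omitted (adjusted p = 0.0601). Uba6, an alternative E1 for ubiquitin, stood at 72.6 and 62.1 against 58.5 and 68.7 CPM and did not pass, although it was called lower with library totals (adjusted p = 0.0489).

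Among 32 other E2 genes tested, 12 were higher (37.5%, against 24.2% of all tested genes), 5 lower (15.6%, against 24.0%) and 15 neither (median 0.20). The largest rise was that of Ube2m, the E2 for NEDD8, from 60.6 and 69.8 to 139 and 136 CPM (1.08, adjusted p = 1.08e-05), and the fold changes of the list ran from -0.64 to 1.08, all below the 4.04 of Ube2l6. Ube2f, the other E2 for NEDD8, rose too, from 31.8 and 35.6 to 64.1 and 59.1 CPM (0.87). Ube2d1 fell from 33.9 and 35.7 to 24.2 and 20.5 CPM (-0.64), but did not pass when either M0 library was omitted (adjusted p = 0.0626 for replicate 1 and 0.0783 for replicate 2). Without M0 replicate 1 the list had 3 rises and 0 falls, and without M0 replicate 2 it had 5 and 0. Without M1 replicate 2, 16 rose and 2 fell. With library totals it had 5 and 6.

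Among 4 other HERC genes tested, 1 was higher (25.0%, against 24.2% of all tested genes) and 1 lower (25.0%, against 24.0%), close to the shares over all genes. Herc3 was higher (0.54, adjusted p = 0.0291), Herc1 lower (-0.44, adjusted p = 0.036), and Herc2 and Herc4 did not pass (-0.38 and 0.10). Herc3 no longer passed when M0 replicate 2 (adjusted p = 0.24) or M1 replicate 1 (0.0949) was omitted, with upper-quartile factors (0.0648) and with library totals (0.213). Herc1 no longer passed when M0 replicate 1 (adjusted p = 0.445), M0 replicate 2 (0.114) or M1 replicate 1 (0.204) was omitted. Herc2 was called lower when M1 replicate 2 was omitted (adjusted p = 0.0039), with upper-quartile factors (0.0254), library totals (0.00785) or the replicate block (0.0205) and with no low-count filter (0.0134). Herc6 went from the lowest per-length mean of the 5 HERC genes in M0 to the highest in M1.

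Among 44 other genes of ubiquitin-specific proteases (USP) tested, 8 were higher (18.2%, against 24.2% of all tested genes), 6 lower (13.6%, against 24.0%) and 30 neither (median 0.01, range -2.10 to 0.94). Usp25, which trims ubiquitin chains, had the largest rise of these, from 219 and 216 to 401 and 434 CPM (0.94, adjusted p = 1.04e-05). Usp2 had the largest fall, from 29.3 and 26.5 to 6.03 and 7.01 CPM (-2.10, adjusted p = 2.62e-06). Usp19 and Usp9x, the 2 with the most reads among those that did not pass, stood at 203 and 191 against 182 and 192 CPM and at 221 and 175 against 141 and 218 CPM. Usp19 was called lower with library totals (adjusted p = 0.0155), and Usp9x when M1 replicate 2 was omitted (0.0134). Without M0 replicate 1 the list had 1 rise and 1 fall, without M0 replicate 2 it had 2 and 2, and with library totals 2 and 15.

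**Figure D3:**
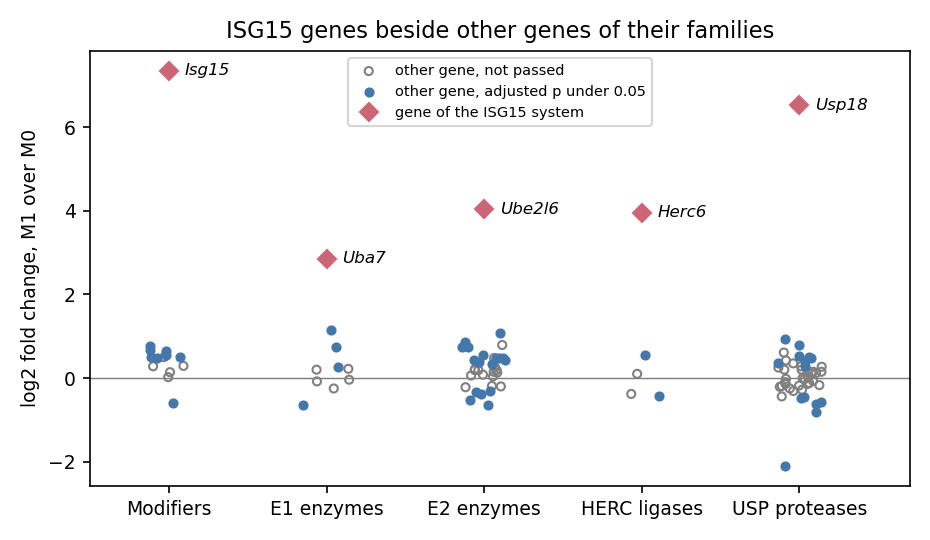
Log2 fold change of M1 over M0 for the 5 ISG15 genes (red diamonds) and the tested genes of the matching families: other modifiers, E1, E2, HERC and USP genes (blue where adjusted p is under 0.05, open where not). In each family the ISG15 gene lies above every other gene plotted, the highest of which are at 1.14 among E1, 1.08 among E2, 0.54 among HERC and 0.94 among USP genes.

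Other ubiquitin-like modifiers and ubiquitin genes changed little beside Isg15. Among 13 tested, 7 were higher (53.8%, against 24.2% of all tested genes), 1 was lower (7.69%, against 24.0%) and 5 missed the threshold, with fold changes between -0.60 and 0.77 (median 0.50). Nedd8 rose from 52.9 and 56.4 to 101 and 85.4 CPM (0.77) and the polyubiquitin gene Ubb from 177 and 220 to 318 and 319 CPM (0.68). Rps27a, a ubiquitin fusion gene listed as lower (-0.60, adjusted p = 0.0453), lost that call with each library left out (adjusted p between 0.0734 and 0.266) and with DESeq2, limma-voom and the replicate block (0.124, 0.06 and 0.0525). Ubiquitin genes have many processed copies, so their counts are uncertain. The list had 2 rises without M0 replicate 1, 3 without M0 replicate 2, 4 without M1 replicate 1 and 3 with library totals.

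In terms of per-length level, each ISG15 gene took a far greater share of its family in M1. Isg15 made up 1.39% of the summed level of 15 modifier genes in each M0 library and 60.6% and 61.1% in the M1 libraries. Ube2l6 went from 3.37% and 3.28% of 35 E2 genes to 32.4% and 31.5%, and from position 14 of the family to the top. Usp18 went from 0.36% and 0.548% of 47 USP genes to 29.9% and 25.2%, and from position 38 to the top. Herc6 went from 6.13% and 7.65% to 55.3% and 53.5% of 5 HERC genes. Uba7 went from 4.86% and 4.26% to 18.2% and 18.4% of 10 E1 genes, where Uba1 stayed above it. Without the member, the modifiers summed to 395 and 451 CPM per kilobase in M0 and 642 and 603 in M1, and the E1 genes to 187 and 191 against 285 and 294. The rest of the E2 family summed to 493 and 519 CPM per kilobase in M0 and 639 and 579 in M1, and the rest of the USP family to 471 and 452 against 485 and 522. The rest of the HERC family summed to 36.3 and 29.4 against 30.1 and 32.3. These shares are descriptions of transcript levels and carry no test.

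**Figure D4:**
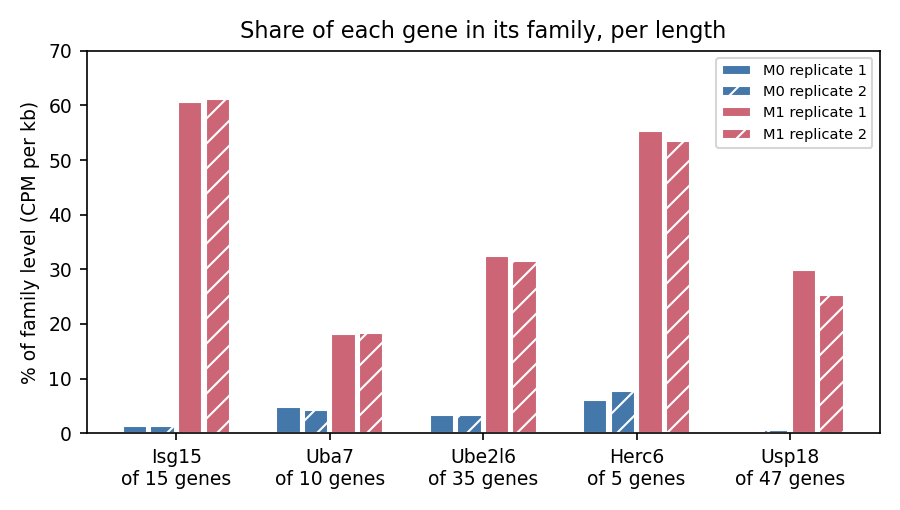
Share of each ISG15 gene in the summed per-length level (CPM per kilobase) of its family, in percent, for each library (M0 blue, M1 red, replicate 2 hatched). M1 bars run from 18.2% for Uba7 to 61.1% for Isg15, and no M0 bar exceeds 7.65%.

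Other enzymes reported to add or remove ISG15 were also measured. Trim25, a ubiquitin ligase that can also act as an ISG15 ligase, rose from 240 and 236 to 513 and 537 CPM (1.14, adjusted p = 1.75e-06), against 3.95 for Herc6. Usp14 rose from 162 and 180 to 238 and 212 CPM (0.40, adjusted p = 0.00858). It did not pass when M0 replicate 1 (adjusted p = 0.152) or M0 replicate 2 (0.0719) was omitted, or with library totals (0.251). Arih1, Usp5, Usp16 and Usp21 did not pass (-0.19, 0.13, 0.27 and 0.25), although Arih1 was called lower with upper-quartile factors (adjusted p = 0.0273) and library totals (0.00298). Usp13 stayed at or under 0.369 CPM and was not tested. In all, 2 of 6 tested genes rose (33.3%, against 24.2% of all tested genes).

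Genes of the type I interferon receptor, its kinases and STAT2 rose in 4 of 5 cases, where 24.2% of all tested genes were called higher. Stat2, which brings USP18 to the receptor and also carries the interferon signal to the nucleus, rose from 73.1 and 73.9 to 623 and 704 CPM (3.17, adjusted p = 1.31e-09). The receptor genes Ifnar1 and Ifnar2 rose from 180 and 178 to 362 and 414 CPM (1.12) and from 80.5 and 93.6 to 159 and 158 CPM (0.87). The kinase gene Tyk2 rose from 84.4 and 76.5 to 132 and 186 CPM (0.98), though not past the threshold when M0 replicate 2 was omitted (adjusted p = 0.0642), and Jak1 stood at 278 and 267 against 269 and 297 CPM and did not pass. Usp18 rose by far more than any of them.

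Genes of transcription factors that act on interferon-response promoters were measured as well. Irf7 rose from 15.6 and 17.7 to 1500 and 1550 CPM (6.53), a fold change like that of Usp18. Irf9, the DNA-binding partner of STAT2, and Irf1 rose by 1.38 and 1.37 on the log2 scale. Irf3, which LPS signalling activates through phosphorylation, stood at 36.2 and 42.5 against 46.6 and 42.2 CPM and did not pass (0.18, adjusted p = 0.297). Of 7 interferon genes listed, 4 were measured. Ifnb1 was at 0 in both M0 libraries and at 0.246 CPM in each M1 library, and Ifna2, Ifng and Ifnk stayed at or under 0.369 CPM. None of these could be tested.

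Both chains of LFA-1, the integrin that binds extracellular ISG15 on lymphocytes, were higher in M1. Itgal rose from 417 and 429 to 2050 and 2370 CPM (2.39, adjusted p = 9.95e-09) and Itgb2 from 575 and 566 to 1030 and 1130 CPM (0.92, adjusted p = 1.21e-05). Itgb2 also pairs with other integrin chains in macrophages.

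Genes next to the members moved differently from locus to locus. The neighbours of Isg15, Agrn at a distance of 1936 bases and AW011738 at 2486 bases, rose as well, from 28.5 and 30.1 to 134 and 156 CPM (2.31, adjusted p = 3.93e-08) and from 1.05 and 1.39 to 10.9 and 10.4 CPM (3.13, adjusted p = 8.3e-06). Inka1, on the opposite strand only 163 bases from Uba7, stood at 9.35 and 11.7 against 11.4 and 8.37 CPM and did not pass, and neither did Traip on the other side (9.35 and 6.37 against 6.83 and 9.1 CPM). Beside Ube2l6, Timm10 was higher (0.76, adjusted p = 0.0084) and Serping1 did not pass (1.45, adjusted p = 0.0771). Timm10 did not pass when M0 replicate 1 (adjusted p = 0.079) or M0 replicate 2 (0.0652) was omitted, or with library totals (0.0502). Beside Herc6, Ppm1k was higher (0.65, adjusted p = 0.00623), but not when M0 replicate 1 was omitted (0.0868) and with library totals (0.0567), and Pyurf did not pass (0.00). Beside Usp18, Slc6a13 was higher (1.90, adjusted p = 0.00807) at no more than 3.45 CPM, but not when M0 replicate 2 (0.0825) or M1 replicate 1 (0.0511) was omitted. Tuba8 was too low to test.

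Genes with the most similar pattern were found by the distance between log2(CPM + 0.5) profiles over the 4 libraries, centred on each gene's mean, among 9348 candidate genes whose mean reached 10 CPM in at least 1 group. Closest to Usp18 were the formyl peptide receptor gene Fpr2 (distance 0.134, from 6.42 and 8.58 to 796 and 653 CPM) and the antiviral gene Ifit1 (0.143). Closest to Herc6 were Ehd1, an endocytic recycling gene (0.0335), and Oas1a, an antiviral nucleotide synthetase gene (0.123). Herc6 and Ube2l6 lay at 0.166 from each other, between the distances of Ube2l6 to H2-Q4 (0.159) and to Ehd1 (0.179), its 2 closest genes outside the ISG15 system. Uba7 was closest to Sla (0.0741) and Smpdl3b (0.0875). Isg15 was closest to Phf11a (0.0897) and the GTPase gene Gbp6 (0.279), whose fitted log2 fold changes of 8.56 and 8.07 exceed the 7.35 of Isg15. The added 0.5, which the fit does not use, shrinks differences from very low levels in this distance. Isg15 and Usp18 lay at 0.829 from each other and at 2.42 to 4.36 from the conjugation genes. With 4 libraries in 2 groups the distance mostly reflects the size of the change.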

How the data were processed

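RNA from the 4 libraries was extracted with Trizol and depleted of ribosomal RNA, per the labels' protocols. The authors deposited raw read counts by gene symbol. The submitters' processing notes name Subread 2.0.1, featureCounts, DESeq2 1.30.1, R 4.0.4 and the build mm10, with no order. The aligner, annotation and strand setting are not given in the sources used here.

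Genes were filtered with filterByExpr (minimum count 10, minimum total 15; 5290 removed) and the groups tested with edgeR 4.0.16 (R 4.3.3): quasi-likelihood, TMM factors of 0.911 to 1.10, and Benjamini-Hochberg adjusted p under 0.05 over 12966 genes. Standard errors and 95% intervals come from the fitted log2 fold change and its F statistic. The estimated biological coefficient of variation was 10.9%, on 2 residual degrees of freedom. CPM used library totals times TMM factors. On counts simulated with the same relative spread for every gene and few changed genes, 91.9% of the 99 genes changed 2-fold were recovered. There were 8 false calls among 12701 tested. That rate need not hold for the real counts, where far more genes were called. Replicate libraries differed beyond sampling noise (chi-square per degree of freedom 9.15 in M0 and 13.3 in M1).

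Lengths, coordinates and neighbours came from GENCODE vM21 (GRCm38, the assembly that mm10 names), which held 97.8% of the symbols. Transcript matches used blastn 2.17.0 at 95% identity or more. Alternatives were other scalings and filters, DESeq2 1.42.0, limma-voom (limma 3.58.1), the replicate number as a block and each library left out. Named genes were all members, all genes of lists of at most 8 genes, the largest changes of each longer list, neighbours and the 2 most similar genes per member, of which some are printed. The members and lists were chosen with earlier results of these data known.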

Additional observations from a re-analysis of the deposited data

How the results depend on the processing

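The 5 members stayed higher in M1 under all 13 alternatives, 65 values in all, with log2 fold changes of 7.09 to 7.44 for Isg15, 2.60 to 2.94 for Uba7, 3.79 to 4.15 for Ube2l6, 3.70 to 3.98 for Herc6 and 6.26 to 6.81 for Usp18, and adjusted p of at most 0.00132. Of 936 values for 72 other named genes, 868 kept their call, 50 lost it, 18 gained it and 0 reversed. Over all genes, 3140 were higher and 3108 lower. Library totals gave 2026 and 4776, so that 29.8% instead of 50.3% of calls were higher, and moved the median log2 fold change by -0.252. Upper-quartile factors moved it by -0.104. Leaving out 1 library gave 1691 to 2965 higher and 1463 to 2854 lower. A fit without a library takes the spread of the lone library's group from the other group, and the cause of the lost calls was not tested.

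The fit with the replicate number as a block gave 2957 higher and 2975 lower and changed no member's call, but same-numbered libraries deviated in opposite directions (correlation -0.113), and the labels do not say that a number marks a shared animal or day. Pairing the numbers crosswise gave 3648 higher and 3627 lower.

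Counts in the lists moved more. With library totals, rises and falls were 3 and 1 for modifiers, 2 and 3 for E1, 5 and 6 for E2, 0 and 2 for HERC, 2 and 15 for USP, 2 and 4 for other proteases, and 1 and 1 for other ISG15 enzymes. With upper-quartile factors, E1 had 2 falls, HERC 0 rises and 2 falls, USP 5 rises, other proteases 2 rises and other ISG15 enzymes 1 fall. With DESeq2, modifiers had 0 falls, E2 3 falls, and other proteases 2 rises and 1 fall. With limma-voom, modifiers had 0 falls. With the replicate block, modifiers had 0 falls, E2 3 falls, HERC 2 falls and other proteases 2 rises. With the crossed pairing, E1 had 2 falls, HERC 2 falls and other ISG15 enzymes 1 fall. Without the low-count filter, HERC had 2 falls. Leaving out 1 library gave 2 to 8 rises and 0 falls for modifiers, 2 to 3 and 0 to 1 for E1, 3 to 16 and 0 to 4 for E2, 0 to 1 and 0 to 2 for HERC, 1 to 8 and 1 to 9 for USP, 2 to 3 and 1 to 2 for other proteases, and 1 to 2 and 0 for other ISG15 enzymes.

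With the longest transcript as the length, mean ratios in M0 and M1 were 1.85 and 3.24 for Isg15 to Usp18, 1.34 and 3.06 for Ube2l6 to Uba7, and 0.361 and 8.07 for Isg15 to Uba7, and that of Herc6 to Uba7 was 0.604 in M1. With library totals, levels per kilobase were 888 for Isg15 in M1, 9.84 and 59.6 for Uba7, 19.0 for Ube2l6 in M0, and 2.62 and 34.1 for Herc6. In the 250 bases before the start alone, GAAA-NN-GAAA was in 2.98% of windows, TTCNNNGAA in 7.02%, GGG-NN-TTTCC in 1.41% and AAA-NN-GAAAC in 1.92%. Depth limits the interferon genes, which lay near the level of 3 counts.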

Other observations

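Proteases that process other ubiquitin-like proteins, listed together with ubiquitin hydrolases such as Uchl1, were measured beside Usp18. Among 13 tested, 4 were higher (30.8%, against 24.2% of all tested genes), 2 lower (15.4%, against 24.0%) and 7 neither, with a median log2 fold change of 0.18. With M0 replicate 1, M0 replicate 2 or M1 replicate 2 omitted, 2 were higher, and with M0 replicate 1, M1 replicate 1 or M1 replicate 2 omitted, 1 was lower. Uchl1, a ubiquitin hydrolase best known from neurons, rose from 2.88 and 6.78 to 18.1 and 14.0 CPM (1.75, adjusted p = 0.00127 by the edgeR quasi-likelihood test). Ufsp2, which removes UFM1, rose from 39.9 and 38.4 to 61.1 and 67.6 CPM (0.72, adjusted p = 0.000452). Senp2, which removes SUMO, fell from 182 and 179 to 99.8 and 98.7 CPM (-0.86, adjusted p = 2.28e-05). Senp3 and Senp5, of the same family, stood at 99.7 and 98.7 against 120 and 101 CPM and at 80.0 and 77.1 against 82.9 and 95.2 CPM, and did not pass. The rest of this list, like the other families, had no change near the size of that of Usp18.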
